A study of Mus musculus with 6 samples.

Results

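Transforming growth factor beta (TGF-beta) and bone morphogenetic protein (BMP) signalling was examined through 42 genes in RNA from isolated mouse glomeruli. The genes were taken by symbol from a list of ligands, latent TGF-beta binding proteins, secreted antagonists, receptors, Smads and Id genes, and all 42 were found among the 54838 gene identifiers of the count tables. Their selection used the names and roles of the genes, with earlier results of these data known. The libraries were 3 from wild type mice, labelled CTRL (157, 162 and 163), and 3 from mice with a podocyte-specific loss of bPIX (bPIX -/-), labelled KO (146, 147 and 148), all 3 weeks old. Each library came from the glomeruli of 1 mouse, so n = 3 in each group throughout. bPIX is the product of Arhgef7, an exchange factor for small GTPases, and the podocyte is the epithelial cell that covers the glomerular capillary. The sources used here do not give the Cre line, the strain or the sex of the mice. By the design only podocytes lose the gene, so a KO library also holds RNA of other glomerular cells and of tubule fragments in which it is intact. File names and sample labels contradict each other for every library, a file under a CTRL label being named for a KO mouse and the reverse. The labels decided the groups here, and with the file names as the truth each difference below would keep its size and change its sign.

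TGF-beta, activins and BMPs are secreted dimers that bind a pair of type II and a pair of type I serine/threonine kinase receptors. TGF-beta and activin receptors act through Smad2 and Smad3, BMP receptors act through Smad1, Smad5 and Smad9, and both groups of Smads enter the nucleus with Smad4. TGF-beta is secreted in a latent form bound to latent TGF-beta binding proteins, and antagonists such as noggin, chordin, gremlin and follistatin hold BMPs or activins away from their receptors. In the glomerulus TGF-beta is known for promoting matrix production and podocyte injury, the type I receptor ALK1 (Acvrl1) is typical of endothelium, and the Id genes are direct targets of BMP signalling.

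Levels are CPM, read counts scaled to a common library size with TMM factors. Differences are log2 fold changes of KO against CTRL from edgeR's quasi-likelihood F test with their standard errors (SE), and adjusted p is the Benjamini-Hochberg value over the 17086 genes tested, with a threshold of 0.05. Gene counts ran from 39841396 to 51917945 per library. Arhgef7 stood at 91.9, 94.0 and 88.4 CPM in CTRL and at 133, 89.5 and 85.8 CPM in KO 146, 147 and 148. Its log2 difference was 0.17 (SE 0.17, edgeR adjusted p = 0.544) and -0.07 without KO 146 (edgeR adjusted p = 0.488), so the level of the targeted gene did not separate the labels. The sources used here do not say which part of the gene was deleted, and the counts cover all of it. Markers of the cell types in the preparation differed between the groups. The summed level of 18 podocyte markers was 1128 to 1350 CPM in CTRL and 2487 to 8928 CPM in KO, that of 16 glomerular endothelial markers 821 to 964 CPM and 1660 to 5571 CPM, and that of 13 mesangial and smooth muscle markers 367 to 376 CPM and 586 to 2160 CPM. The 16 proximal tubule markers ran the other way, from 30209.95 to 32029.6 CPM in CTRL and from 14076 to 24199 CPM in KO. KO 146 had the highest summed glomerular levels and the lowest proximal tubule level, and KO 148 stood nearest to CTRL on each of these lists. No marker was at 0 in any library. In bulk RNA, fewer cells of a type and less RNA per cell cannot be told apart. The exact two-sided permutation test over the 6 libraries gave p = 0.1 for the mean log2 CPM of each of these 4 lists, the smallest value that 3 against 3 allow. The part of these marker levels in the results below was not tested.

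No member passed the edgeR test. Of the 41 members with enough counts to be tested, 0 were called higher and 0 lower in KO, against 0.591% and 0.421% of all genes tested. At an unadjusted p under 0.05 the same test gave 14 members higher and 3 lower, against 17.5% and 11.8% of all genes. The log2 difference was positive in 29 members and negative in 12, with a median of 0.21. Over all genes tested it was positive in 8419 of 17086, with a median of -0.01. The 3 KO values all lay above the 3 CTRL values in 17 members, or 41.5%, and all below them in 5, or 12.2%, against 21.8% and 19.6% of all genes. Scaling by library totals alone, which moved the median of all genes to 0.13, gave 19 members above and 3 below, against 29.6% and 11.2% of all genes. Calls varied with the test and with 2 of the KO libraries. DESeq2 called 8 members higher (Tgfb1, Bmp2, Ltbp1, Ltbp4, Acvrl1, Tgfbr2, Tgfbr3 and Bambi) and 1 lower (Bmpr1b), against 11.6% and 5.64% of all genes, and limma-voom called 0 in either direction, against 0.433% and 0.363%. Without KO 146 edgeR called 6 higher and 3 lower, against 10.5% and 6.62% of all genes, and without KO 148 it called 10 higher and 2 lower, against 12.9% and 5.4%. Without a filter on low counts edgeR called 0 higher and 1 lower, Bmpr1b, against 1.41% and 1.31%. Leaving out any of the other 4 libraries gave no call of a member and few of any gene. Of all genes, 0.00569% were called higher and 0.00569% lower without CTRL 157, 0.0114% and 0.0057% without CTRL 162, 0.0284% and 0.0284% without CTRL 163, and 0.00574% and 0.00574% without KO 147.

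**Figure D1:**
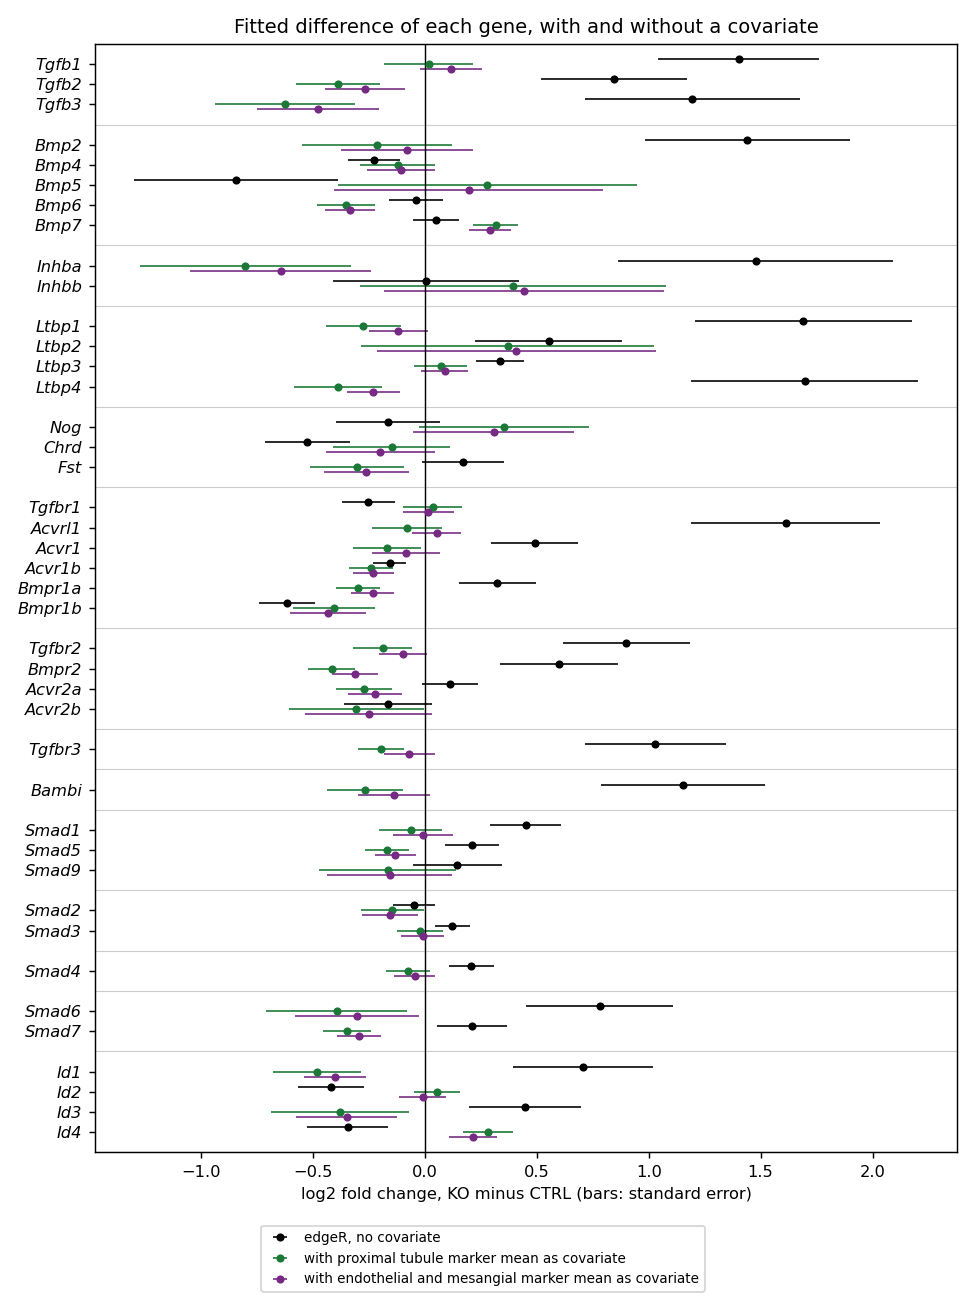
The log2 fold change of KO against CTRL with its SE is plotted for each of the 41 tested members, grouped by role, without a covariate (black), with the proximal tubule marker mean (green) and with the endothelial and mesangial marker mean (purple) as a covariate. Ltbp4 (1.70), Ltbp1 (1.69) and Acvrl1 (1.61) lie furthest to the right without a covariate, and with either covariate they lie between -0.39 and 0.05.

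All 3 TGF-beta ligands had higher levels in the 3 KO libraries than in the 3 CTRL libraries. Tgfb1 (ENSMUSG00000002603, GRCm38 chr7:25687002-25705077, plus strand), the main TGF-beta ligand of injured kidney, was at 17.95, 17.58 and 18.02 CPM in CTRL and at 74.2, 41.8 and 25.4 CPM in KO 146, 147 and 148. The CTRL values were almost level and the KO values spread widely, with KO 146 far above the others. Its log2 difference was 1.40 (SE 0.36, edgeR adjusted p = 0.0785). The call depended on the libraries used: Tgfb1 passed without KO 146 (0.90, edgeR adjusted p = 0.0357) and without KO 148 (1.70, edgeR adjusted p = 0.0147), and its adjusted p ran from 0.00156 to 0.978 over all fits tried. Tgfb2 was at 4.30, 4.67 and 4.52 CPM in CTRL and 12.6, 6.08 and 5.45 CPM in KO, a log2 difference of 0.84 (SE 0.33, edgeR adjusted p = 0.148). Tgfb3 was at 1.95, 1.60 and 2.303 CPM in CTRL and 8.04, 2.97 and 2.35 CPM in KO, a log2 difference of 1.20 (SE 0.48, edgeR adjusted p = 0.159). In all 3 ligands KO 146 was highest, KO 147 next and KO 148 nearest to CTRL. The podocyte, endothelial and mesangial marker lists all had this order.

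Among the BMP ligands Bmp2 had groups that did not overlap under either scaling, and Bmp7 did not overlap under scaling by library totals alone. Bmp2, a BMP ligand made by endothelium among other cells, was at 1.35, 1.08 and 1.63 CPM in CTRL and 6.33, 2.605 and 2.02 CPM in KO, a log2 difference of 1.44 (SE 0.46, edgeR adjusted p = 0.102, and 0.0319 without KO 148). The summed endothelial markers had the same order of libraries, from 5571 CPM in KO 146 to 1660 CPM in KO 148, against 821 to 964 CPM in CTRL. So had the summed podocyte markers, from 8928 CPM in KO 146 to 2487 CPM in KO 148, against 1128 to 1350 CPM in CTRL. Bmp7, which maintains nephron progenitors and is made by podocytes and tubules, ranged from 52.8 to 66.5 CPM over the 6 libraries, with a log2 difference of 0.05 (SE 0.10). Bmp6, known for its control of hepcidin, ranged from 48.5 to 62.6 CPM over the 6 libraries, with a log2 difference of -0.04 (SE 0.12) that became 0.11 under scaling by library totals. Its exons share 224 bases with the opposite-strand gene Txndc5. Bmp4 ranged from 27.6 to 35.0 CPM in CTRL and from 24.2 to 28.3 CPM in KO, overlapping ranges with a log2 difference of -0.23 (SE 0.12). Its exons share 89 bases with the opposite-strand gene Gm15217, and the sources used here do not say whether strand was used in counting. Bmp5 was scarce, at 0.367 to 0.565 CPM in CTRL and 0.152 to 0.440 CPM in KO, with a log2 difference of -0.84 (SE 0.46) that passed the test only without KO 148 (-1.49, edgeR adjusted p = 0.0416). Bmp6 and Bmp7 thus had the smallest differences of the 5 BMP ligands.

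The activin subunits were scarce. Inhba, the subunit of activin A, had 36, 21 and 25 counts in CTRL and 212, 41 and 37 counts in KO. On the CPM scale this was 0.836, 0.551 and 0.565 in CTRL and 3.59, 0.989 and 0.814 in KO, so KO 148 lay within the CTRL range (the groups did not overlap under scaling by library totals), and the log2 difference was 1.48 (SE 0.61, edgeR adjusted p = 0.168), against 0.46 without KO 146 (edgeR adjusted p = 0.319). Inhbb, the subunit of activin B, ranged from 0.581 to 1.55 CPM in CTRL and from 0.796 to 1.57 CPM in KO, with a log2 difference of 0.01 (SE 0.42).

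Among the latent TGF-beta binding proteins, which store TGF-beta in the matrix, Ltbp4 and Ltbp1 had large differences. Ltbp4 (ENSMUSG00000040488, chr7:27305136-27337692, minus strand) was at 28.0, 29.8 and 25.99 CPM in CTRL and 168, 65.2 and 38.1 CPM in KO. Ltbp1 (ENSMUSG00000001870, chr17:75005568-75392512, plus strand) was at 12.8, 14.6 and 12.7 CPM in CTRL and 77.9, 32.4 and 19.1 CPM in KO. Both were highest in KO 146 and neither overlapped between the groups, with log2 differences of 1.70 for Ltbp4 (SE 0.51, edgeR adjusted p = 0.0932) and 1.69 for Ltbp1 (SE 0.48, edgeR adjusted p = 0.0875). The mesangial and smooth muscle markers likewise summed to 586 to 2160 CPM in KO, highest in KO 146, against 367 to 376 CPM in CTRL. The podocyte and endothelial markers were also highest in KO 146. Without KO 148 both passed, Ltbp4 at 2.06 (edgeR adjusted p = 0.0162) and Ltbp1 at 2.04 (edgeR adjusted p = 0.0153). Without KO 146 Ltbp1 passed at 0.94 (edgeR adjusted p = 0.0438) and Ltbp4 missed the threshold at 0.88 (edgeR adjusted p = 0.0687). The ratio of Ltbp1 to Ltbp4 counts hardly moved over the 6 libraries, at 0.457, 0.490 and 0.490 in CTRL and 0.465, 0.4965 and 0.5003 in KO. This pair was chosen after its values were seen. Ltbp3 was at 41.1, 37.4 and 43.0 CPM in CTRL and 57.7, 48.7 and 46.9 CPM in KO, a small log2 difference of 0.34 (SE 0.11, edgeR adjusted p = 0.102) without overlap. Ltbp2, which binds fibrillin but not latent TGF-beta, was close to the detection limit, with 6 to 12 counts in CTRL and 10 to 19 counts in KO. Its log2 difference was 0.55 (SE 0.33, edgeR adjusted p = 0.301), and its groups overlapped.

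**Figure D2:**
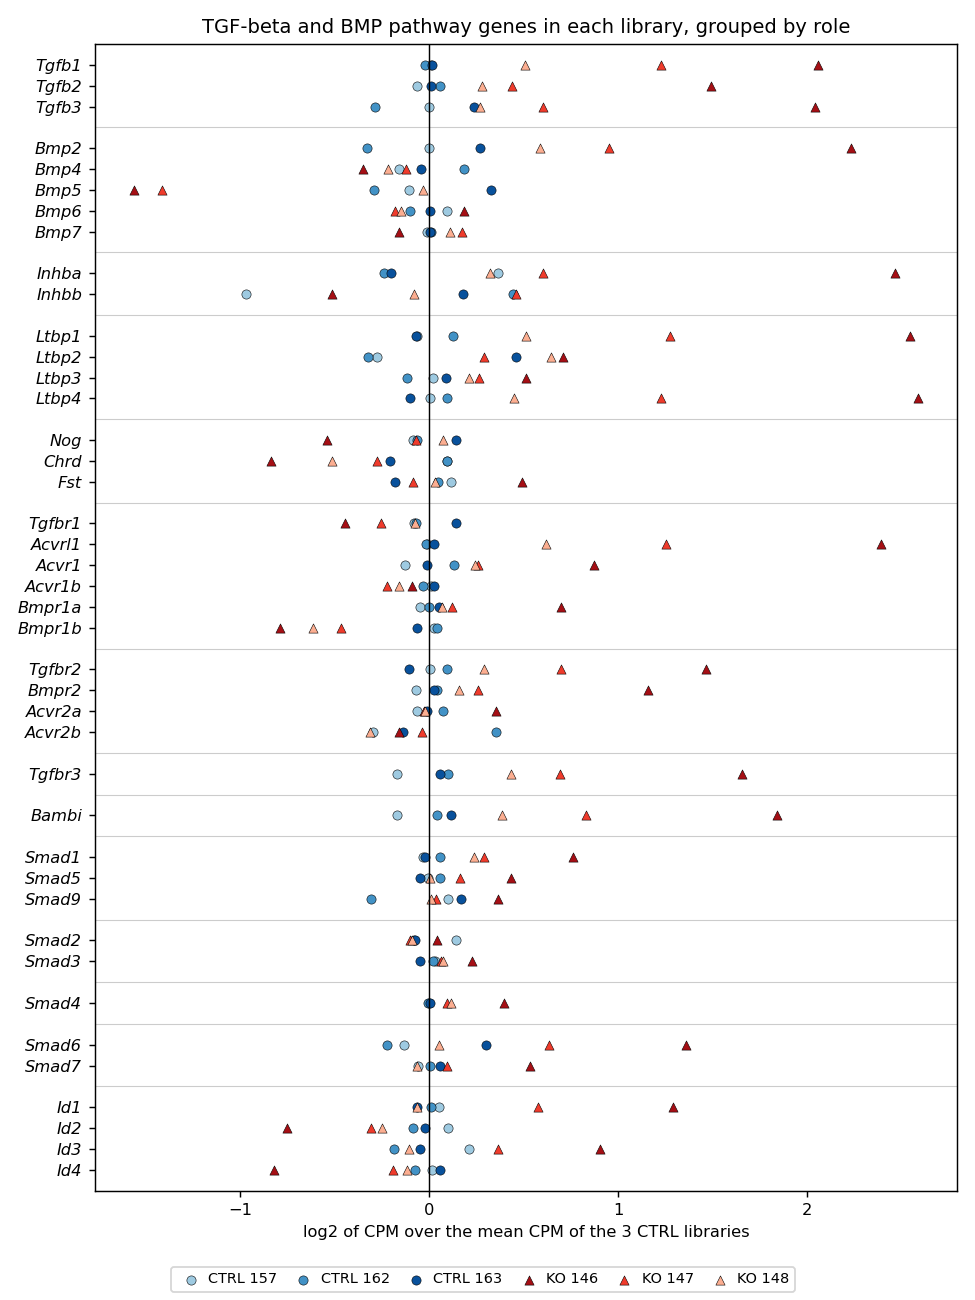
Each of the 41 tested members is shown with its 6 libraries, as log2 of CPM over the mean CPM of the 3 CTRL libraries, grouped by role (circles CTRL, triangles KO). Tgfb1, Ltbp1, Ltbp4 and Acvrl1 spread to the right in the order KO 148, 147 and 146, while Bmpr1b, Id2 and Id4 lie to the left in all 3 KO libraries.

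The secreted antagonists showed no shared direction. Chrd, which encodes the BMP antagonist chordin, was at 5.92, 5.93 and 4.81 CPM in CTRL and 3.11, 4.58 and 3.89 CPM in KO, without overlap and with KO lower. Its log2 difference was -0.53 (SE 0.19, edgeR adjusted p = 0.129), the groups overlapped under scaling by library totals, and 239 of its exonic bases are shared with Thpo on the other strand. Fst, the activin-binding protein follistatin, ranged from 7.02 to 8.62 CPM in CTRL and from 7.5004 to 11.2 CPM in KO (log2 difference 0.17, SE 0.18). Nog, the BMP antagonist noggin, ranged from 0.906 to 1.06 CPM in CTRL and from 0.660 to 1.01 CPM in KO (log2 difference -0.16, SE 0.23). Grem1, which encodes gremlin, was too low to be tested in the fit of all 6 libraries, with 18, 2 and 7 counts in CTRL and 28, 4 and 2 counts in KO.

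The type I receptors held members in both directions. Acvrl1 (ENSMUSG00000000530, chr15:101128522-101145336, plus strand), the endothelial receptor ALK1, was at 17.0, 16.9 and 17.4 CPM in CTRL and 89.6, 40.8 and 26.3 CPM in KO. The CTRL libraries were nearly identical and every KO library was above them, in the order 146, 147 and 148. The log2 difference was 1.61 (SE 0.42, edgeR adjusted p = 0.0796), and it passed without KO 146 (0.96, edgeR adjusted p = 0.0171) and without KO 148 (1.93, edgeR adjusted p = 0.0147). Bmpr1b (ENSMUSG00000052430, chr3:141837136-142169425, minus strand), the BMP receptor ALK6, was the clearest member in the other direction and had the smallest unadjusted p of all members, 0.0019. It was at 10.1, 10.3 and 9.55 CPM in CTRL and 5.77, 7.24 and 6.53 CPM in KO, lower in 3 of 3 libraries under both scalings. Its log2 difference was -0.62 (SE 0.13, edgeR adjusted p = 0.0731). The proximal tubule markers were likewise lower in all 3 KO libraries. Bmpr1b passed without a filter on low counts (-0.62), with DESeq2, without KO 146 (-0.54, edgeR adjusted p = 0.0123) and without KO 148 (-0.62, edgeR adjusted p = 0.0394), and its adjusted p ran from 0.000654 to 0.323 over all fits tried.

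The remaining type I receptors had smaller differences. Acvr1, the BMP receptor ALK2, was at 9.38, 11.2 and 10.2 CPM in CTRL and 18.8, 12.3 and 12.1 CPM in KO (log2 difference 0.49, SE 0.20, edgeR adjusted p = 0.155). Bmpr1a, the BMP receptor ALK3, ranged from 53.5 to 57.3 CPM in CTRL and from 57.9 to 89.7 CPM in KO, without overlap (log2 difference 0.32, SE 0.17). Tgfbr1, the TGF-beta receptor ALK5, ranged from 50.5 to 58.9 CPM in CTRL and from 39.2 to 50.6 CPM in KO, with KO 148 inside the CTRL range (log2 difference -0.25, SE 0.12). Acvr1b, the activin receptor ALK4, ranged from 53.2 to 55.3 CPM in CTRL and from 46.5 to 51.0 CPM in KO (log2 difference -0.16, SE 0.07). Its groups overlapped under scaling by library totals, and it passed the test only without KO 146 (-0.20, edgeR adjusted p = 0.0474). Acvrl1 and Tgfbr1 therefore had opposite signs, and the ratio of Acvrl1 to Tgfbr1 counts was 0.336, 0.333 and 0.296 in CTRL and 2.29, 0.911 and 0.519 in KO. The ratio of Bmpr1a to Bmpr1b counts was between 5.27 and 6.0 in CTRL and 15.5, 8.33 and 8.87 in KO. A ratio within a library does not depend on its scaling. These pairs were chosen after their values were seen and are given as a description.

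Among the type II receptors Tgfbr2, which binds TGF-beta itself, had the largest difference. Tgfbr2 (ENSMUSG00000032440, chr9:116084293-116175360, minus strand) was at 86.5, 92.1 and 80.2 CPM in CTRL and 238, 140 and 105 CPM in KO. The groups did not overlap, and the log2 difference was 0.90 (SE 0.28, edgeR adjusted p = 0.102), passing without KO 146 (0.50, edgeR adjusted p = 0.035) and without KO 148 (1.13, edgeR adjusted p = 0.0202). Bmpr2, the BMP type II receptor, was at 66.9, 72.2 and 71.4 CPM in CTRL and 157, 83.9 and 78.2 CPM in KO (log2 difference 0.60, SE 0.27, edgeR adjusted p = 0.187). The activin type II receptors overlapped between the groups: Acvr2a ranged from 19.3 to 21.2 CPM in CTRL and from 19.8 to 25.8 CPM in KO, and 446 of its exonic bases are shared with Orc4 on the other strand. Acvr2b ranged from 5.83 to 9.13 CPM in CTRL and from 5.76 to 6.97 CPM in KO.

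The co-receptor and the pseudoreceptor resembled Tgfbr2. Tgfbr3 (ENSMUSG00000029287, chr5:107106570-107289629, minus strand), the TGF-beta co-receptor betaglycan, was at 22.2, 26.8 and 25.97 CPM in CTRL and 78.7, 40.4 and 33.7 CPM in KO. Bambi (ENSMUSG00000024232, chr18:3507923-3516404, plus strand), a receptor without a kinase domain that dampens signalling and is itself a TGF-beta and BMP target, was at 4.92, 5.69 and 6.01 CPM in CTRL and 19.8, 9.84 and 7.24 CPM in KO. Neither gene overlapped between the groups, and KO 146 was highest in both. It was also highest in the endothelial marker mean (7.85 log2 CPM in KO 146, 6.66 in KO 147, 6.09 in KO 148 and 5.24 to 5.38 in CTRL). The podocyte marker mean was close to this (7.91, 6.67 and 6.15 in KO and 5.08 to 5.35 in CTRL). The log2 differences were 1.03 for Tgfbr3 (SE 0.31, edgeR adjusted p = 0.0956) and 1.15 for Bambi (SE 0.37, edgeR adjusted p = 0.103). Both passed without KO 146, Tgfbr3 at 0.56 (edgeR adjusted p = 0.0113) and Bambi at 0.61 (edgeR adjusted p = 0.0329), and without KO 148, Tgfbr3 at 1.25 (edgeR adjusted p = 0.0257) and Bambi at 1.42 (edgeR adjusted p = 0.0236).

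The Smads that carry the signal differed little. Smad1, a BMP Smad, was at 10.4, 11.1 and 10.5 CPM in CTRL and 18.1, 13.0 and 12.6 CPM in KO, without overlap (log2 difference 0.45, SE 0.16, edgeR adjusted p = 0.123). Smad4, the shared partner, was at 47.0, 46.9 and 47.3 CPM in CTRL and 61.9, 50.2 and 50.9 CPM in KO, also without overlap (log2 difference 0.21, SE 0.10, edgeR adjusted p = 0.215). Smad3 ranged from 37.1 to 39.1 CPM in CTRL and from 40.1 to 44.8 CPM in KO, close but not overlapping (log2 difference 0.12, SE 0.08). Smad2 (28.7 to 33.6 CPM in CTRL and 28.4 to 31.2 CPM in KO), Smad5 (52.2 to 56.2 and 54.3 to 73.0 CPM) and Smad9 (1.99 to 2.78 and 2.48 to 3.18 CPM) overlapped between the groups. Smad6 and Smad7 are the inhibitory Smads, which block receptors and are induced by the pathway they block. Smad6 was at 24.0, 22.5 and 32.4 CPM in CTRL and 67.5, 40.8 and 27.3 CPM in KO (log2 difference 0.78, SE 0.33, edgeR adjusted p = 0.171). KO 148 lay below CTRL 163, and Smad6 passed only without KO 148 (1.04, edgeR adjusted p = 0.0344). Smad7 ranged from 30.7 to 33.3 CPM in CTRL and from 30.6 to 46.3 CPM in KO (log2 difference 0.21, SE 0.16).

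The 4 Id genes, which encode inhibitors of basic helix-loop-helix factors and are BMP targets, divided into 2 pairs with opposite signs. Id1 (ENSMUSG00000042745, chr2:152736251-152737410, plus strand) was at 25.8, 25.1 and 23.8 CPM in CTRL and 60.9, 37.1 and 23.8 CPM in KO. Id3 (ENSMUSG00000007872, chr4:136143497-136145755, plus strand) was at 79.3, 60.1 and 66.1 CPM in CTRL and 128, 88.2 and 63.7 CPM in KO. In both, KO 146 and KO 147 were above every CTRL library and KO 148 was not. Id2 (ENSMUSG00000020644, chr12:25093799-25097140, minus strand) was at 263, 231 and 242 CPM in CTRL and 146, 198 and 207 CPM in KO. Id4 (ENSMUSG00000021379, chr13:48261228-48266026, plus strand) was at 41.0, 38.5 and 42.2 CPM in CTRL and 22.9, 35.5 and 37.4 CPM in KO. In both, every KO library was below every CTRL library and KO 146 was lowest, as in the proximal tubule marker mean (8.79 to 9.51 log2 CPM in KO and 9.81 to 9.93 in CTRL). The loop, distal tubule and collecting duct marker mean had the same pattern (7.04 to 7.622 log2 CPM in KO and 7.675 to 7.89 in CTRL). The log2 differences were 0.71 for Id1 (SE 0.31, edgeR adjusted p = 0.187), 0.45 for Id3 (SE 0.25, edgeR adjusted p = 0.28), -0.42 for Id2 (SE 0.15, edgeR adjusted p = 0.126) and -0.34 for Id4 (SE 0.18, edgeR adjusted p = 0.255). Id1 passed only without KO 148 (0.97, edgeR adjusted p = 0.0238), Id2 only without KO 146 (-0.28, edgeR adjusted p = 0.0317), and Id3 and Id4 in no fit tried. The ratio of Id3 to Id2 counts was 0.301, 0.260 and 0.273 in CTRL and 0.879, 0.445 and 0.308 in KO. The ratio of Id2 to Id4 counts stayed between 5.53 and 6.43 in all 6 libraries, while the CPM of each was lower in KO. These ratios were not planned and are given as a description.

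**Figure D3:**
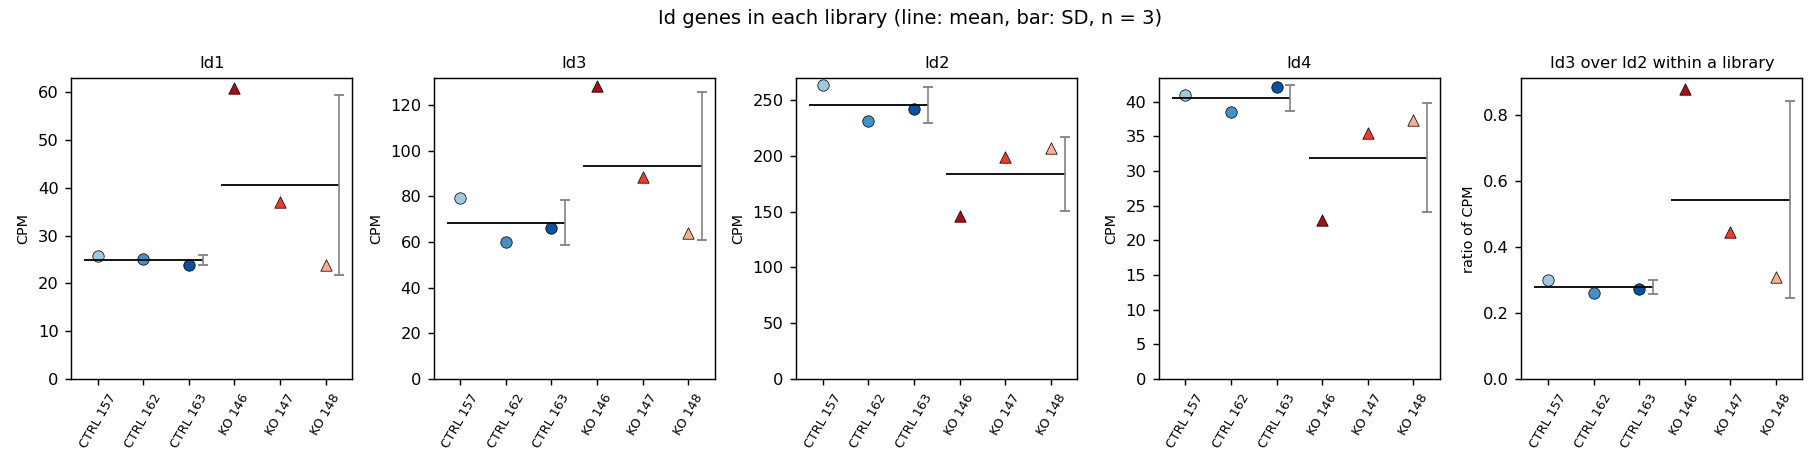
Levels of Id1, Id2, Id3 and Id4 in CPM are shown per library with the ratio of Id3 to Id2 (line, mean; bar, SD; n = 3). Id1 and Id3 are higher in KO 146 and KO 147 only, and Id2 and Id4 are lower in all 3 KO libraries, most in KO 146.

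A promoter motif search was planned for the Id genes, Smad6 and Smad7. Sequence beside the RefSeq gene start is printed for Id2 and Id4, a pair picked after its ratio was seen. Shared control of this pair was not tested. Sequences came from RefSeq on GRCm38.p6, whose promoter table held 30 of the 42 members and lacked the other 12, including Id1. The 250 bases before each RefSeq gene start were searched for GGCGCC, the core of the BMP response element, and for CAGAC, the Smad binding element, on both strands. GGCGCC, which reads the same on both strands, was found in 9.59% of the 32851 promoters in that table and CAGAC in 42.2%. Among the 38 promoters listed for the 30 members, 11 held GGCGCC (28.9%) and 16 held CAGAC (42.1%). The 10 members with GGCGCC in at least 1 promoter were Ltbp4, Grem1, Chrd, Tgfbr1, Bmpr1a, Bmpr2, Smad5, Smad9, Id2 and Id4, with log2 differences of both signs among the tested ones, so the motif was not particular to the Id2 and Id4 pair. For Id2 and Id3 the RefSeq start lies downstream of the GENCODE start, so both windows fall inside the gene as GENCODE draws it, and the Id3 window is wholly exonic there. Counted from the RefSeq start, GGCGCC began at 231 bases in the Id2 window and at 148 bases in the Id4 window, and neither held CAGAC. The Id3 window held CAGAC at 167 bases on the forward strand and at 68 bases on the reverse strand and no GGCGCC, and the Smad6 window held neither. A match describes these letters and is not evidence of binding. The Id2 sequence is the part of its window outside GENCODE exons, an intragenic stretch in that annotation, chr12:25096254-25096342 on the minus strand, and the Id4 sequence is its whole window, upstream in both annotations, chr13:48260866-48261115 on the plus strand, with GGCGCC in capitals.
Id2: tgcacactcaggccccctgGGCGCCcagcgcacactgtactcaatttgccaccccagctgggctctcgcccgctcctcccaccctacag
Id4: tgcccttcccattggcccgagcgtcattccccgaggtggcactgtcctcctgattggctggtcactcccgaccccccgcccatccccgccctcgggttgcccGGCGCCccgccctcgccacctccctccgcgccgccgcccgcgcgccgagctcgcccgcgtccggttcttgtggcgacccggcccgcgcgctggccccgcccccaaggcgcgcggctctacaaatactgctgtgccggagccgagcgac

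Per kilobase of exon, Id2 was the most abundant member, at 101 ± 6.64 CPM per kb in CTRL and 75.3 ± 13.6 in KO (SD, n = 3). Id3 followed at 38.3 ± 5.48 CPM per kb in CTRL and 52.1 ± 18.1 in KO, and Id1 at 21.5 ± 0.873 and 35.0 ± 16.2. In CTRL, Bmp7 (14.7 ± 0.0946 CPM per kb), Bmp6 (14.1 ± 0.957) and Bmp4 (13.7 ± 1.69) came next and did not differ from each other beyond their spread. In KO, Tgfbr2 came after the 3 Id genes at 19.7 ± 8.38 CPM per kb, against 10.5 ± 0.731 in CTRL, and its KO spread covers the level of Bmp7 (15.2 ± 1.80). The lowest members in CTRL were Ltbp2 (0.0241 ± 0.0078 CPM per kb), Grem1 (0.0505 ± 0.0454) and Inhba (0.102 ± 0.0252). Acvrl1 went from 4.01 ± 0.0667 CPM per kb in CTRL to 12.2 ± 7.78 in KO, a far wider spread.

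**Figure D4:**
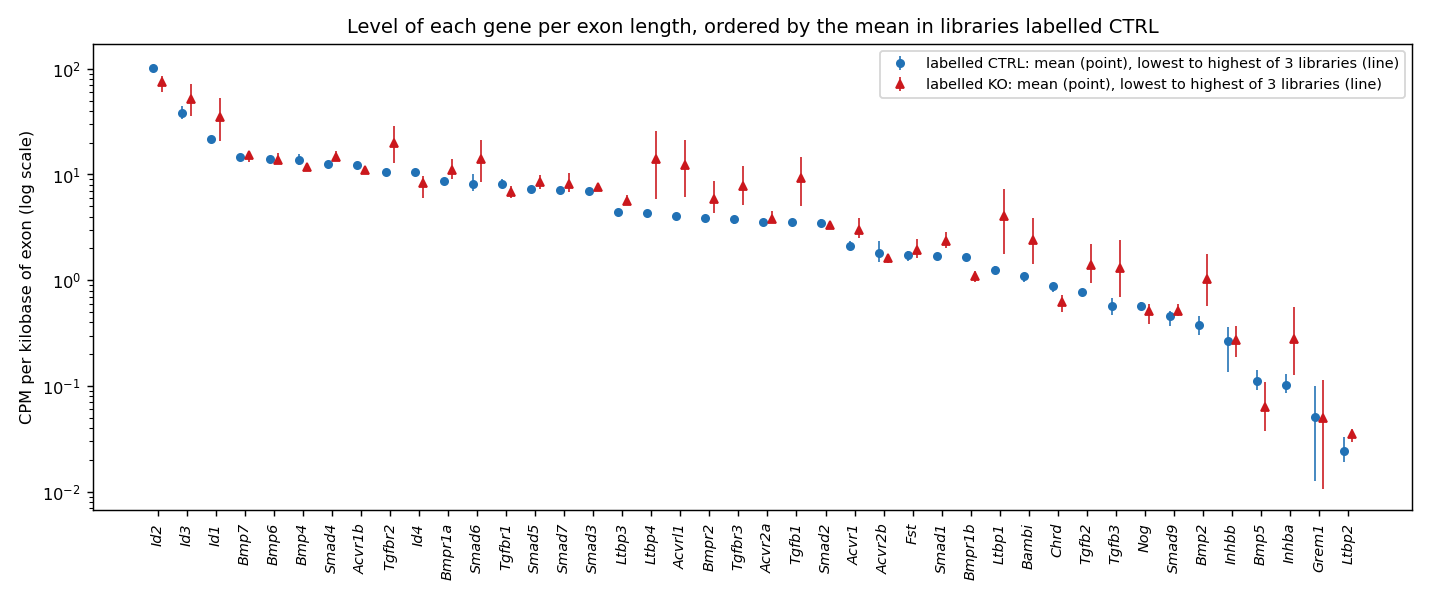
Mean CPM per kilobase of exon, on a log axis, is shown for each member and group with lines from the lowest to the highest library, ordered by the CTRL mean. In CTRL, levels run from 101 for Id2 down to 0.0241 for Ltbp2, and the KO ranges are wide for Ltbp1, Ltbp4, Acvrl1 and Tgfb1.

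The KO libraries did not stand equally far from CTRL. KO 146 was the highest of all 6 libraries in 28 of the 41 tested members, or 68.3%, against 36.0% of all genes, and the lowest in 9, or 22.0%, against 36.8%. The order 146 above 147 above 148 was found in 22 members, or 53.7%, against 29.3% of all genes, and the reverse order in 5, or 12.2%, against 29.0%. The glomerular endothelial marker mean followed the same order, at 7.85, 6.66 and 6.09 log2 CPM in KO 146, 147 and 148 against 5.24, 5.38 and 5.37 in CTRL. The podocyte and mesangial marker means had this order too. The proximal tubule marker mean ran in reverse, at 8.79, 9.34 and 9.51 log2 CPM in KO and 9.93, 9.81 and 9.85 in CTRL.

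Set against the endothelial marker mean of the same library, the members with the largest differences differed less between the groups. Acvrl1 lay 1.23 ± 0.075 log2 units below that mean in CTRL and 1.35 ± 0.034 below it in KO (SD, n = 3). Ltbp4 was at -0.53 ± 0.13 in CTRL and -0.64 ± 0.19 in KO, and Tgfb1 at -1.17 ± 0.09 and -1.45 ± 0.18. Every member was lower against this mean in KO than in CTRL. The mean itself was 1.54 log2 units higher in KO, so any gene with a smaller rise falls against it. The share of all genes that did so was not computed. Against the mesangial and smooth muscle mean, Ltbp1 (0.11), Ltbp4 (0.09) and Acvrl1 (0.09) were higher in KO and every other member was lower. Against the endothelial mean, Id1 went from -0.69 ± 0.13 in CTRL to -1.63 ± 0.25 in KO. Its CPM was nonetheless higher in 2 of the 3 KO libraries. Other members fell further, among them Id3 from 0.76 ± 0.28 to -0.38 ± 0.40 and Smad4 from 0.23 ± 0.08 to -1.11 ± 0.74. Set against the proximal tubule marker mean, Bmpr1b was at -6.54 ± 0.08 in CTRL and -6.52 ± 0.27 in KO, and Id2 at -1.92 ± 0.03 and -1.71 ± 0.11. With the proximal tubule mean as a covariate in edgeR, the median log2 difference of the members was -0.19 and 10 of 41 were positive. Over all genes it was then -0.004, with 8434 of 17086 positive. With the averaged endothelial and mesangial means the median of the members was -0.13, again with 10 positive, against 0.001 and 8565 positive over all genes. Acvrl1 was then at -0.08 and 0.05, Tgfb1 at 0.02 and 0.12, and Bmpr1b at -0.41 and -0.43, in that order of covariates. The covariates do not overlap between the groups, so the covariate and the group cannot be told apart in these fits, and no member passed in either (0.913% and 0.24% of all genes were called higher and lower with the first covariate, 1.47% and 0.386% with the second).

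**Figure D5:**
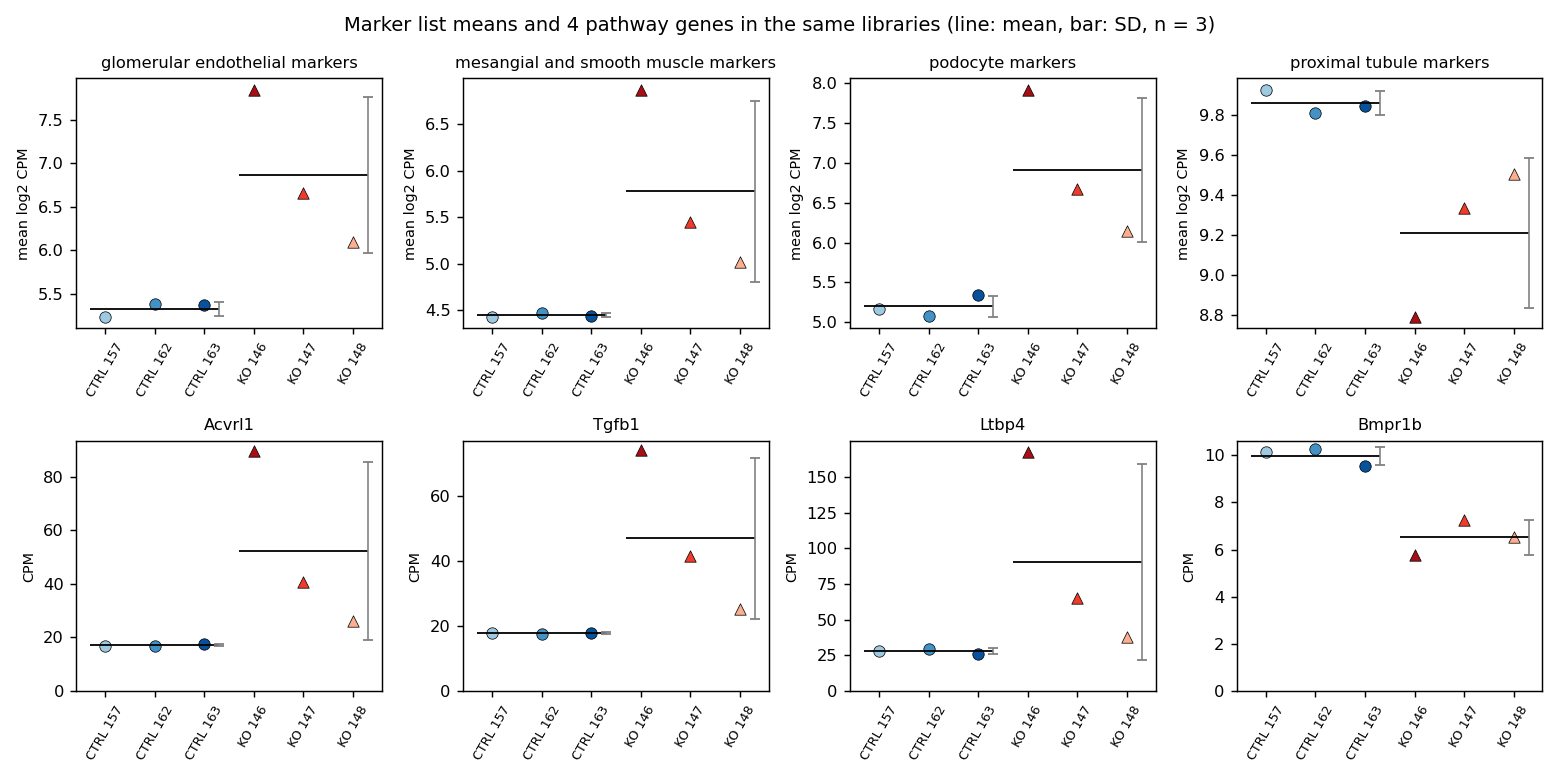
Mean log2 CPM of 4 marker lists (upper row) and CPM of Acvrl1, Tgfb1, Ltbp4 and Bmpr1b (lower row) are plotted by library (line, mean; bar, SD; n = 3). Podocyte, endothelial and mesangial markers and Acvrl1, Ltbp4 and Tgfb1 are highest in KO 146, and proximal tubule markers and Bmpr1b are lower in KO than in CTRL.

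A wider list of 94 other genes of the pathway, of which 69 were tested, was read from the same fit. None passed the edgeR test in either direction, 30 were higher and 9 lower at an unadjusted p under 0.05, against 17.5% and 11.8% of all genes, and 46 had a positive and 23 a negative log2 difference, with a median of 0.27. The groups did not overlap in 29 with KO higher, or 42%, and in 12 with KO lower, or 17.4%, against 21.8% and 19.6% of all genes. The 10 tested targets outside the Id family had the highest median of the sublists, 1.56, with 9 positive and 8 without overlap. Msx2, a further target with too few counts to be tested there, had 8 to 12 counts in CTRL and 1 to 3 in KO. Its level was lower in KO without overlap, at 0.255, 0.210 and 0.271 CPM in CTRL and 0.051, 0.072 and 0.022 CPM in KO. The median log2 difference was 2.06 for the podocyte markers, 1.74 for the endothelial and 1.62 for the mesangial markers, and that of the 10 targets was -0.09 with the proximal tubule covariate and -0.02 with the endothelial and mesangial covariate, with 4 positive in each. The 18 intracellular regulators had a median of 0.04, with 4 higher and 6 lower without overlap. DESeq2 called 23 of the 69 higher and 1 lower (Itgb8, an integrin subunit that activates latent TGF-beta), against 11.6% and 5.64% of all genes. EdgeR called 17 higher and 6 lower without KO 146, against 10.5% and 6.62%, and 23 higher and 4 lower (Msx2, Itgb8, Itgb6 and Kcp) without KO 148, against 12.9% and 5.4%. These edgeR counts cover all genes of the list that passed the filter of the fit in question. They include Msx2, which is not among the 69.

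The 8 genes of this list with the smallest unadjusted p all had KO levels above CTRL in 3 of 3 libraries. Gdf5, a BMP-family ligand known from joint formation, was at 0.232, 0.289 and 0.203 CPM in CTRL and 2.39, 1.01 and 0.990 CPM in KO (log2 difference 2.61, SE 0.45, edgeR adjusted p = 0.0594). Bmper, an extracellular BMP modulator, was at 0.557, 0.472 and 0.542 CPM in CTRL and 2.51, 1.18 and 1.72 CPM in KO (log2 difference 1.78, SE 0.32, edgeR adjusted p = 0.0624). Both were low, with 9 to 24 counts per CTRL library. For Bmper KO 147 and not KO 148 was nearest to CTRL. Emilin1, which limits the processing of TGF-beta precursor, was at 17.3, 18.1 and 19.2 CPM in CTRL and 116, 59.2 and 36.2 CPM in KO. Bgn, the matrix proteoglycan biglycan, was at 38.5, 42.2 and 45.0 CPM in CTRL and 246, 126 and 77.9 CPM in KO. Bmp1, a procollagen protease that cleaves chordin and is no BMP ligand, was at 4.67, 4.78 and 5.87 CPM in CTRL and 35.0, 16.0 and 10.6 CPM in KO. These 3 genes were highest in KO 146 and next in KO 147, as Acvrl1 and Ltbp4 were. Ccn2, a matricellular protein induced by TGF-beta, was at 70.1, 85.8 and 123 CPM in CTRL and 465, 236 and 180 CPM in KO, Fstl1 ranged from 36.7 to 40.2 CPM in CTRL and from 63.7 to 165 CPM in KO, and Fbn2 from 0.226 to 0.315 and from 0.550 to 1.12 CPM. Adjusted p from edgeR for Emilin1, Bgn, Bmp1, Fbn2, Fstl1 and Ccn2 lay between 0.0737 and 0.0755. With the proximal tubule covariate the log2 differences were 1.24 for Gdf5, 1.09 for Bmper, 0.65 for Fbn2, 0.39 for Emilin1, 0.35 for Bmp1, 0.30 for Bgn, 0.30 for Ccn2 and 0.23 for Fstl1, and none passed, with edgeR adjusted p from 0.202 (Gdf5) to 0.77 (Ccn2). All 8 passed without KO 148, and all but Ccn2 (edgeR adjusted p = 0.0612) without KO 146.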

How the data were processed

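RNA was sequenced from isolated glomeruli of 3 mice labelled CTRL and 3 labelled KO. The submitters' processing notes name HTSeq 0.11.1, STAR 2.6.0, fastp 0.19.5 and DESeq2. The notes name the human build GRCh37, while the gene identifiers are those of mouse, so the build aligned to is uncertain. The deposited values are raw counts per gene, one file per library. Lines that name no gene held 28.55% to 35.14% of all records and were left out, and reads aligned to several places alone made up 22.51% to 29.63% of all records. Names and positions came from GENCODE M21 on GRCm38.

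Counts were tested in R 4.3.3 with edgeR 4.0.16 (TMM, filterByExpr with a minimum count of 10, robust quasi-likelihood F test, Benjamini-Hochberg over 17086 genes). SE was derived as |log2 fold change| / √F. List means used log2 CPM with a prior count of 2. Alternatives used DESeq2 1.42.0, limma 3.58.1, other scalings, no filter, a marker covariate and leaving out each library. The fit was tested on simulated data. Libraries of a group differed by more than sampling noise, with chi-square per degree of freedom of 16.71 to 18.41 between CTRL libraries, 27.09 between KO 147 and KO 148, and 175.65 and 298.59 between KO 146 and these 2.

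Members and lists were chosen with earlier results of these data known. All members could be named. Values per library were given for the 20 with the smallest unadjusted p and the Id genes, and also for Smad4 and, as counts, Grem1. Per-library values of other pathway genes were given mainly for the 8 with the smallest p.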

Additional observations from a re-analysis of the deposited data

How the results depend on the processing

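No paired analysis was possible because the animal numbers are not shared between the groups. Counts of called genes, higher and lower in KO, moved most with the test and the libraries. For the members they were 0 and 0 in edgeR, 8 and 1 with DESeq2, 0 and 1 without a low-count filter, and from 0 to 10 and from 0 to 3 on leaving out each library. For the other pathway genes they were 23 and 1 with DESeq2, 5 (Gdf5, Bmper, Fbn2, Tgfbi and Rgma) and 2 (Msx2 and Itgb8) without a filter, 0 and 2 with the endothelial and mesangial covariate (Crim1 and Sost), and from 0 to 23 and from 0 to 6 on leaving out each library. For all genes they were 101 and 72 in edgeR, 497 and 463 without a filter, 1989 and 964 with DESeq2, 156 and 41 with the proximal tubule covariate, 251 and 66 with the other covariate, and from 1 to 2266 and from 1 to 1147 on leaving out each library. The cause was not tested.

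With the proximal tubule covariate the sign reversed for the median of the members (-0.19) and for Tgfb2 (-0.39), Tgfb3 (-0.62), Bmp2 (-0.21), Bmp5 (0.28), Inhba (-0.80), Ltbp1 (-0.28), Ltbp4 (-0.39), Nog (0.35), Fst (-0.30), Tgfbr1 (0.03), Acvrl1 (-0.08), Acvr1 (-0.17), Bmpr1a (-0.30), Tgfbr2 (-0.19), Bmpr2 (-0.42), Acvr2a (-0.27), Tgfbr3 (-0.20), Bambi (-0.27), Smad1 (-0.06), Smad5 (-0.17), Smad9 (-0.16), Smad3 (-0.02), Smad4 (-0.07), Smad6 (-0.39), Smad7 (-0.35), Id1 (-0.48), Id2 (0.05), Id3 (-0.38), Id4 (0.28) and Arhgef7 (-0.44). With the endothelial and mesangial covariate it reversed for the median (-0.13), Tgfb2 (-0.27), Tgfb3 (-0.48), Bmp2 (-0.08), Bmp5 (0.20), Inhba (-0.64), Ltbp1 (-0.12), Ltbp4 (-0.23), Nog (0.31), Fst (-0.26), Tgfbr1 (0.01), Acvr1 (-0.09), Bmpr1a (-0.23), Tgfbr2 (-0.10), Bmpr2 (-0.31), Acvr2a (-0.22), Tgfbr3 (-0.07), Bambi (-0.14), Smad1 (-0.01), Smad5 (-0.13), Smad9 (-0.16), Smad3 (-0.01), Smad4 (-0.04), Smad6 (-0.30), Smad7 (-0.29), Id1 (-0.40), Id3 (-0.35), Id4 (0.21) and Arhgef7 (-0.38). Neither covariate can be told apart from the group, and no member passed in either fit. Several of the reversed values were smaller than their SE, such as Acvrl1 (-0.08, SE 0.16) and Smad3 (-0.02, SE 0.10) with the proximal tubule covariate. Scaling by library totals reversed Bmp6 (0.11) and Smad2 (0.09). Leaving out a library reversed Bmp6 (-0.17 to 0.03), Bmp7 (-0.02 to 0.14), Inhbb (-0.32 to 0.28), Fst (-0.03 to 0.28), Acvr2a (-0.03 to 0.18), Acvr2b (-0.30 to 0.04), Smad2 (-0.10 to 0.02), Arhgef7 (-0.07 to 0.28), the leukocyte marker mean (-0.084 to 0.061) and the erythroid marker mean (-0.766 to 0.536). The median of the members ran from 0.14 to 0.33 on leaving out each library. Grem1 had too few counts to pass the filter in the fit of all 6 libraries. It passed the filter in some fits that left out a library, with log2 differences from -0.40 (without CTRL 162) to 0.49 (without KO 148).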
